A study of Mus musculus with 5 samples.

Results

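The MHC class II genes of the mouse mammary gland were followed across cell classes and genotypes in single-cell RNA profiles. The set held 8 of the 32285 genes listed in the deposited matrices, chosen by symbol: H2-Aa, H2-Ab1, H2-Eb1, H2-DMa, H2-DMb1, H2-Oa, Cd74 and Ciita. Each symbol matched 1 row, and all 8 members had UMIs (unique molecular identifiers, which mark captured transcripts) in every library. Glands came from 5 mice with 1 library each, 3 labelled Frmd3 knockout (KO1, KO2 and KO3) and 2 labelled wild type (WT1 and WT2). Frmd3 encodes a protein with a FERM domain, a membrane-binding fold. The labels give tissue and genotype; the age, strain, deleted part of Frmd3 and cells that carry the deletion are not stated there.

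MHC class II molecules present peptides from endosomes to CD4+ T cells, mainly on dendritic cells, macrophages and B cells, which in the mammary gland lie around and between the epithelial ducts. An α chain and a β chain pair in the endoplasmic reticulum with the invariant chain, Cd74, which blocks the peptide groove until proteases cut it down to a short fragment. H2-DM, a dimer of H2-DMa with a β chain from H2-DMb1 or H2-DMb2, exchanges that fragment for peptide. H2-O, made of H2-Oa and H2-Ob, holds H2-DM back. Ciita, the class II transactivator, switches on these genes through the factors RFX, CREB and NF-Y, which sit on X and Y boxes of their promoters.

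Droplet capture used version 3 of the 10x Genomics 3′ chemistry, and 26834 cells entered the description, 9450 in KO1, 4440 in KO2, 2218 in KO3, 4831 in WT1 and 5895 in WT2. Median depth per cell was 4110.5 UMIs in KO1, 12707.5 in KO2 and 6688.5 in KO3, against 8561 in WT1 and 12016 in WT2. Library pairs shared at most 0.357% of cell barcodes. KO1 stood apart in 1 respect: 3853 of its cells, 40.8% of that library, fell in a cluster of low depth (median 2855 UMIs) that stayed unnamed. The profile of that cluster resembled the sum of the other cells of KO1, with Pearson r of 0.996 across 32285 genes, which are not independent replicates. KO3 held 0 B cell-like cells. Frmd3 itself had 125, 192 and 42 UMIs in the 3 KO libraries, against 74 and 191 in the 2 WT libraries, or 1.89, 3.23 and 1.91 CPM (UMIs scaled to counts per 1e6 of the library or class) against 1.46 and 2.43 CPM. A 3′ count may lie outside the deleted part, so it checks nothing about the labels.

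Of the 8 members, 6 lie close together on chromosome 17 (GENCODE mouse release 21, mm10). H2-Oa is at chr17:34092340-34095234, H2-DMa at chr17:34119541-34139101, H2-DMb1 at chr17:34153072-34160230, H2-Ab1 at chr17:34257689-34269419, H2-Aa at chr17:34282744-34287823 on the minus strand and H2-Eb1 at chr17:34305867-34316674. The other 2, Cd74 and Ciita, lie elsewhere, and all 8 are protein-coding genes.

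Promoters of 4 members are shown because these genes followed different patterns over the cell classes. H2-Aa and H2-Eb1 are chain genes, and H2-DMb1 did not follow H2-Aa in luminal and some other classes. H2-Oa was highest in B cell-like and dendritic cell-like cells. Each run is the stretch of 120 bases before the RefSeq start (GRCm38.p6), 5′ to 3′ on the gene's strand. Capitals mark matches, on either strand, to an X1-like core (AACNGATG), a Y box core (ATTGG, or CCAAT where it lies on the other strand) or a CRE (TGACGTCA).
H2-Aa chr17:34287824-34287943 (minus strand): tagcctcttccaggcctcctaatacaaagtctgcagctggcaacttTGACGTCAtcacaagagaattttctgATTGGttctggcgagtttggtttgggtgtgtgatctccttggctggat
H2-Eb1 chr17:34305747-34305866 (plus strand): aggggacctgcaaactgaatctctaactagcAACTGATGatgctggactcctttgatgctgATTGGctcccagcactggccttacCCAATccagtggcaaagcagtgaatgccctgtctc
H2-DMb1 chr17:34153071-34153190 (plus strand): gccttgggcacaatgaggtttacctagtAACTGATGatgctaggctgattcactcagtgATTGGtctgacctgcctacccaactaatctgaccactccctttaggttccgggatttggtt
H2-Oa chr17:34092259-34092378 (plus strand): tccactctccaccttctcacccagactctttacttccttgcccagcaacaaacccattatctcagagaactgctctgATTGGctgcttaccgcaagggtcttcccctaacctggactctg
The X1-like letters stood in H2-Eb1 and H2-DMb1, and 296 (0.901%) of all 32851 promoter stretches of this length held them. Each of the 4 stretches held a Y box core, which 21.3% of all stretches hold, and H2-Aa alone of the 4 held a CRE, which 1.24% hold. GENCODE begins H2-DMb1 and H2-Oa upstream of the RefSeq start, so part or all of those 2 stretches lies inside the GENCODE gene. The motif letters were chosen after these sequences had been seen. A match is a description of letters and not a binding site, and a missing match says nothing of the factor.

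Class II transcripts were concentrated in 4 leukocyte classes. The sum over the 8 members was 54137, 48020 and 38195 CPM in dendritic cell-like cells of KO1, KO2 and KO3, against 44063 and 46809 CPM in WT1 and WT2. Macrophage-like cells had 22208, 31196 and 14559 CPM in KO libraries against 41068 and 28822 CPM in WT libraries. B cell-like cells had 21474 CPM in KO1 and 18927 CPM in KO2, against 17361 and 17794 CPM in WT libraries. Dendritic cell-like cells were the highest class in all 5 libraries; in WT1 macrophage-like cells came close to them. Monocyte-like cells had 11817, 6877 and 29945 CPM in KO libraries against 8921 and 9562 CPM in WT libraries; in KO3, 41 of the 47 monocyte-like cells came from a sub-cluster of 44 cells led by Il1b and Tnf. Over libraries, the 8 members averaged 46245 ± 5817 CPM in dendritic cell-like (SD, n = 5), 27571 ± 9937 in macrophage-like (n = 5), 18889 ± 1846 in B cell-like (n = 4) and 13424 ± 9402 CPM in monocyte-like cells (n = 5). Ranges of macrophage-like, B cell-like and monocyte-like cells overlapped, so the order of these neighbours was within the spread over libraries.

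**Figure D1:**
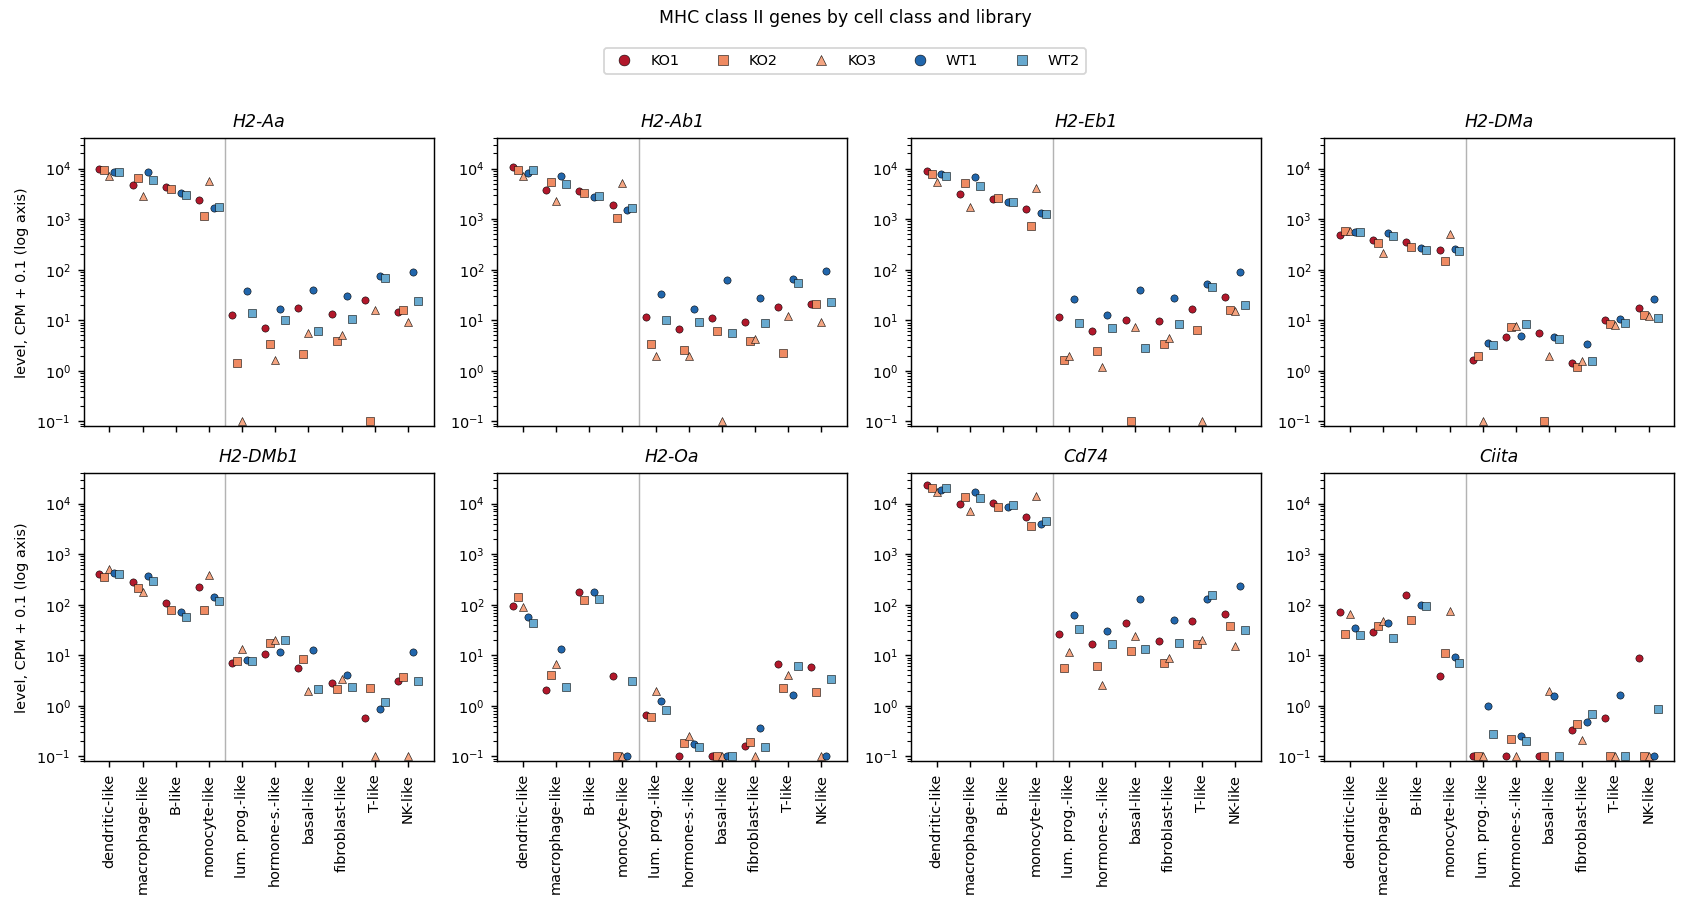
Level of each of the 8 members by cell class and library, as CPM + 0.1 on a log scale, with knockout libraries left of wild-type libraries; symbols at the bottom are libraries with 0 UMIs. For the chain genes, Cd74, H2-DMa and H2-DMb1 the 4 classes left of the grey line stand above all others, and H2-Oa is highest in B cell-like and dendritic cell-like cells.

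Levels of defining markers are given as a description of the named classes. These genes were in the lists that named the clusters, so their presence is no independent check. C1qa, a complement gene of macrophages, was between 2390 and 4192 CPM in macrophage-like cells of the 5 libraries. Cd79a, a chain of the B cell receptor complex, was between 1449 and 1678 CPM in B cell-like cells. Flt3 and Zbtb46, which mark conventional dendritic cells, were between 69.6 and 111 and between 32.0 and 95.3 CPM in dendritic cell-like cells. In monocyte-like cells the marker Plac8 had 745 CPM in KO3 and 2746 to 3456 CPM in the other libraries. The class II genes had been left out of the genes used for clustering, and none of them named a class.

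The classical chains, H2-Aa (α) with H2-Ab1 and H2-Eb1 (β), were highest in dendritic cell-like cells. H2-Aa had 9710, 9548 and 7247 CPM there in KO libraries and 8434 and 8601 CPM in WT libraries. In macrophage-like cells H2-Aa had 4737, 6397 and 2837 CPM in KO libraries and 8639 and 5971 CPM in WT libraries. The WT1 macrophage-like cells thus reached the dendritic cell-like level of H2-Aa, and those of KO3 stayed lowest. B cell-like cells had 4347 and 3875 CPM of H2-Aa in KO1 and KO2 and 3358 and 3046 CPM in WT libraries. H2-Ab1 averaged 9182 ± 1910 CPM in dendritic cell-like cells of KO libraries (SD, n = 3) and 8852 ± 958 CPM in those of WT libraries (n = 2). H2-Eb1 averaged 7420 ± 1829 CPM in KO libraries and 7494 ± 427 CPM in WT libraries of the same class. Both β chain genes thus differed between genotypes by less than their SD in these cells.

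Cd74, which also serves as a receptor for the cytokine MIF, followed the chains. The gene is at chr18:60803848-60812652. It averaged 20213 ± 3146 CPM in dendritic cell-like cells of KO libraries (SD, n = 3) and 19530 ± 1333 CPM in WT libraries (n = 2). In macrophage-like cells it averaged 10183 ± 3154 CPM in KO libraries and 15029 ± 3293 CPM in WT libraries. In B cell-like cells it averaged 9424 ± 1087 CPM (n = 2) and 8828 ± 524 CPM (n = 2) in KO and WT libraries. Each pair of means differed by less than 2 SD of either genotype.

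The peptide exchange genes differed in how far they reached beyond these classes. H2-DMa averaged 552 ± 53 CPM in dendritic cell-like cells of KO libraries and 555 ± 13 CPM in those of WT libraries, and H2-DMb1 averaged 419 ± 78 and 409 ± 13 CPM (SD, n = 3 KO and 2 WT). In B cell-like cells H2-DMb1 had 109 and 79.2 CPM in KO1 and KO2, against 71.0 and 56.6 CPM in WT1 and WT2. The other β chain gene of the exchange factor, H2-DMb2, showed the reverse order of classes. H2-DMb2 had 395 and 250 CPM in B cell-like cells of KO1 and KO2, against 270 and 259 CPM in WT libraries. In dendritic cell-like cells H2-DMb2 had 56.0, 73.3 and 29.5 CPM in KO libraries and 63.8 and 66.9 CPM in WT libraries. H2-DMb1 and H2-DMb2 are close copies, and how the authors' counting divided reads between them is uncertain.

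Among the presenting classes, H2-O transcripts were highest in B cell-like and dendritic cell-like cells. H2-Oa had 175 and 121 CPM in B cell-like cells of KO1 and KO2 and 175 and 129 CPM in those of WT1 and WT2. In dendritic cell-like cells H2-Oa had 96.0, 143 and 91.0 CPM in KO libraries and 55.8 and 44.0 CPM in WT libraries. Its macrophage-like range was 1.92 to 13.2 CPM, and in monocyte-like cells it lay between 0 and 3.77 CPM. The levels of H2-Oa in B cell-like and dendritic cell-like cells of KO libraries overlapped, while in WT libraries the B cell-like cells were higher. The partner gene H2-Ob had 396 and 427 CPM in B cell-like cells of KO1 and KO2 and 393 and 368 CPM in WT libraries. Group 2 innate lymphoid-like cells, 96 in all, also held H2-Oa: 21 UMIs, or 38.9 CPM with an exact 95% Poisson interval of 24.1 to 59.5 that covers counting error only. In the same cells Ciita, H2-DMb1 and H2-Ob each had 0 UMIs, which allows up to 5.56 CPM.

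Ciita, at chr16:10480059-10528418, was a low-abundance transcript with 1070 UMIs in all cells used. It had 155 and 49.7 CPM in B cell-like cells of KO1 and KO2 and 99.4 and 93.6 CPM in those of WT libraries. In dendritic cell-like cells it had 72.0, 25.6 and 63.9 CPM in KO libraries and 33.9 and 24.7 CPM in WT libraries. Macrophage-like cells had 28.8, 38.3 and 48.3 CPM in KO libraries and 44.0 and 21.8 CPM in WT libraries. The level of Ciita overlapped between dendritic cell-like and macrophage-like cells, and among macrophage-like cells Ciita was highest in KO3, the library in which H2-Aa was lowest. In luminal progenitor-like cells Ciita had 0, 0 and 0 UMIs in KO libraries and 7 and 1 in WT libraries.

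Genes outside the set were ranked by how like its class pattern theirs was. Likeness was the Pearson r of log2(CPM + 1) over 16 classes, among 10732 genes reaching 20 CPM in some class, given as a description because the classes share libraries. The genes most like the sum of H2-Aa, H2-Ab1 and H2-Eb1 were Cd83 (r = 0.975), Ly86 (0.967), Cd180 (0.955), Cd40 (0.946), Kmo (0.941) and Pld4 (0.940). Those most like Ciita were Kmo (0.966), Cd180 (0.955), Ly86 (0.946), H2-DMb2 (0.945), Dnase1l3 (0.933) and A530040E14Rik (0.929). Cd83 slows the turnover of surface class II, Cd40 is a costimulatory receptor, and Ly86 and Cd180 encode partner proteins of a toll-like receptor complex.

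Macrophage-like cells were the largest single source of the gland's class II UMIs. They held 41.7%, 45.5% and 52.8% of all UMIs of the 8 members in KO libraries and 77.4% and 49.6% in WT libraries. Dendritic cell-like cells held 9.74%, 25.2% and 30.9% in KO libraries and 11.4% and 20.3% in WT libraries, from 30, 31 and 57 cells and from 65 and 63 cells. B cell-like cells held 20.6%, 19.8% and 0% in KO libraries and 1.90% and 18.0% in WT libraries. The macrophage-like share was the largest in each library, and the unnamed cells of KO1 held 23.5% of that library's class II UMIs.

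**Figure D2:**
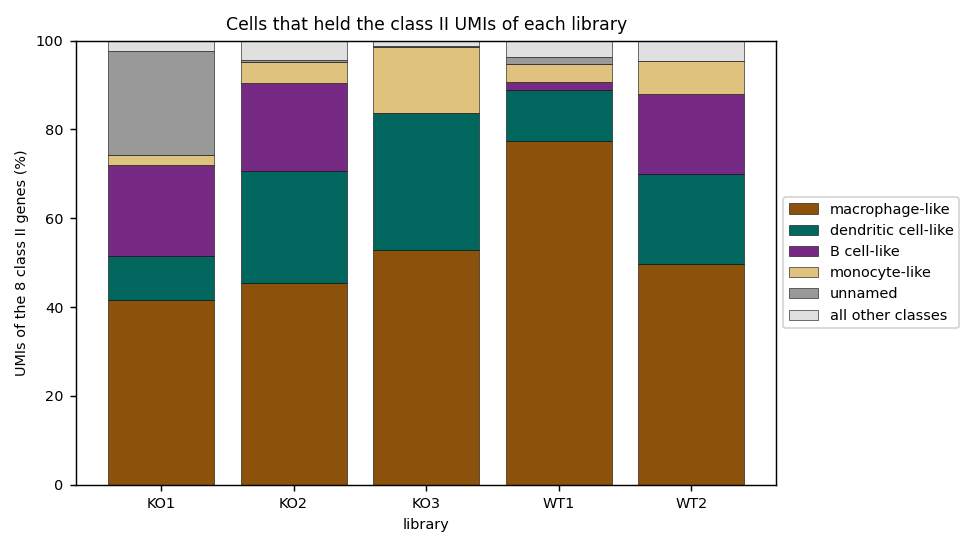
Share of the UMIs of the 8 members that each cell class contributed, in percent of the library, knockout libraries left of wild-type libraries. Macrophage-like cells give between 41.7% and 77.4%, and B cell-like cells between 0% and 20.6%.

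Outside the presenting classes, class II UMIs were few and varied between libraries. The 8 members summed to 71.2, 21.5 and 30.3 CPM in luminal progenitor-like cells of KO libraries and 172 and 76.6 CPM in those of WT libraries. Hormone-sensing luminal-like cells had 51.5, 38.9 and 34.7 CPM in KO libraries and 92.5 and 70.8 CPM in WT libraries, and fibroblast-like cells 55.2, 21.3 and 27.2 CPM against 142 and 49.0 CPM. T cell-like cells, a class that should lack class II in the mouse, had 125, 38.0 and 59.4 CPM in KO libraries and 336 and 339 CPM in WT libraries. WT1 was thus the highest library in all 3 non-leukocyte classes named here. After thinning to 2000 UMIs per cell, 16.2%, 5.30% and 6.38% of luminal progenitor-like cells of KO libraries and 26.6% and 13.03% of those of WT libraries had a class II UMI. The T cell-like shares were 20.9%, 10.7% and 7.69% in KO libraries and 47.5% and 17.3% in WT libraries. Unthinned, the luminal progenitor-like shares were 46.1%, 23.5% and 26.0% in KO libraries and 70.9% and 51.7% in WT libraries, at median depths of 7428.5 to 16461.5 UMIs, and the T cell-like shares 48.9%, 20.5% and 21.0% against 72.4% and 36.2%, at 3591.5 to 5734.5 UMIs. At equal depth the luminal progenitor-like share was below the T cell-like share in each library, so it is not read as expression in these cells. Thinning left out 3 to 50 luminal progenitor-like and 8 to 24 T cell-like cells per library as too shallow. In WT2, 3 of 295 thinned T cell-like cells held 67.3% of that class's class II UMIs. In dendritic cell-like cells the same share was 100% in each KO library and 98.3% and 98.4% in WT libraries.

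H2-DMb1 in luminal cells did not follow the chain genes. To show this, its UMIs were set against those of H2-Aa in each class. In macrophage-like cells there were 5.86, 3.34 and 6.40 H2-DMb1 UMIs per 100 of H2-Aa in KO libraries and 4.27 and 4.94 in WT libraries. In hormone-sensing luminal-like cells of KO libraries, with 33, 81 and 10 H2-Aa UMIs, the ratio was 148, 530 and 1280. In those of WT libraries, with 214 and 197 H2-Aa UMIs, the ratio was 71.0 and 196. In T cell-like cells it was 1.89 in KO1 and 0 in KO3, where H2-Aa had UMIs, and 1.02 and 1.55 in WT libraries. These T cell-like ratios rest on 0 to 2 H2-DMb1 UMIs a library. The lowest hormone-sensing ratio, 71.0 in WT1, was thus over 10 times the highest macrophage-like one. Fibroblast-like cells also had ratios above the macrophage-like ones, 20.7, 55.7 and 64.6 in KO libraries and 12.98 and 21.25 in WT libraries. Basal/myoepithelial-like cells had 31.25, 400 and 33.3 in KO libraries and 32.7 and 33.3 in WT libraries, on 1 to 17 H2-DMb1 UMIs a library. The ratio of 400 in KO2 rests on 1 H2-Aa UMI, under the floor of 3 UMIs. Endothelial-like cells had 37.3 and 8.33 in KO2 and KO3 and 20 in WT1, on 31, 1 and 4 H2-DMb1 UMIs. Pericyte/vascular smooth muscle-like cells had 20, 66.7 and 100 in KO libraries, on 1 or 2 H2-DMb1 UMIs each, and 24.1 in WT1, on 14. The part of free RNA in these counts was not tested. H2-DMb1 itself had 10.3, 17.3 and 20.03 CPM in hormone-sensing luminal-like cells of KO libraries (49, 429 and 128 UMIs) and 11.7 and 19.6 CPM in those of WT libraries (152 and 387 UMIs). H2-Aa in the same cells had 6.97, 3.27 and 1.56 CPM in KO libraries and 16.5 and 9.98 CPM in WT libraries. The libraries lowest in H2-Aa, KO2 and KO3, were among the 3 highest in H2-DMb1. Luminal progenitor-like cells had 6.95, 7.48 and 13.2 CPM of H2-DMb1 in KO libraries and 7.94 and 7.44 CPM in WT libraries. The ratio to H2-Aa was 54.3 and 563 in KO1 and KO2, on 92 and 8 H2-Aa UMIs. In WT libraries that ratio was 21.3 and 53.9, and in KO3 H2-Aa had 0 UMIs in these cells.

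H2-DMa, the partner α chain, was also high against H2-Aa in hormone-sensing luminal-like cells, with 66.7, 223 and 480 UMIs per 100 of H2-Aa in KO libraries and 28.5 and 82.2 in WT libraries. In macrophage-like cells that ratio was 8.33, 5.18 and 7.46 in KO libraries and 6.27 and 7.70 in WT libraries. T cell-like cells shared this property: H2-DMa there had 10.2, 8.45 and 7.92 CPM in KO libraries and 10.7 and 8.62 CPM in WT libraries, while H2-Aa had 24.5, 0 and 15.8 CPM in KO libraries and 74.8 and 69.5 CPM in WT libraries. The H2-DMa level in T cell-like cells thus had a narrower range across libraries than H2-Aa. It rested on few UMIs, such as 22 in KO1, 14 in WT1, 16 in WT2 and 2 in KO3. The KO3 count lay under the floor of 3 UMIs, so a steady level is not shown. Thinned to 2000 UMIs, 2.01%, 3.34% and 5.73% of hormone-sensing luminal-like cells had an H2-DMb1 UMI in KO libraries and 1.45% and 3.46% in WT libraries, against 0%, 1.33% and 0% and against 0.392% and 0% of T cell-like cells. Unthinned, 16.3%, 22.8% and 47.8% of hormone-sensing luminal-like cells of KO libraries and 21.3% and 32.0% of those of WT libraries held one, at median depths of 15506.5 to 29131 UMIs, against at most 1.20% of T cell-like cells in any library. The hormone-sensing luminal-like share was thus above the T cell-like share in all 5 libraries at equal depth. Macrophage markers summed to 29.99, 5.85 and 12.05 CPM in hormone-sensing luminal-like cells of KO libraries and to 23.4 and 11.2 CPM in those of WT libraries. Dendritic cell markers there summed to 5.91, 7.38 and 3.91 CPM in KO libraries and to 5.55 and 10.1 CPM in WT libraries. B cell markers summed to 3.59, 1.41 and 1.56 CPM and to 1.08 and 4.71 CPM. The part of RNA from these cell types in the H2-DMb1 counts was not tested.

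**Figure D3:**
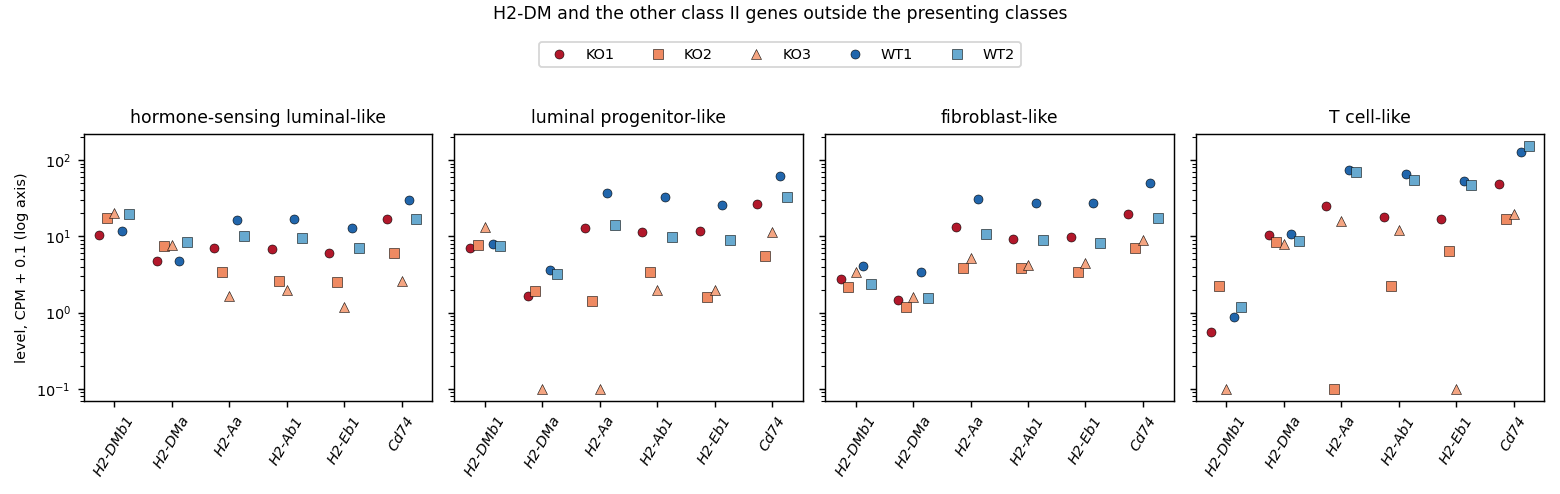
Level of 6 members in 4 classes outside the presenting ones, as CPM + 0.1 on a log scale, by library, knockout left of wild type; symbols at the bottom are libraries with 0 UMIs. In hormone-sensing luminal-like cells H2-DMb1 is at 10.3 to 20.03 CPM in every library while H2-Aa ranges from 1.56 to 16.5 CPM.

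Dendritic cell-like cells were also grouped by the marker genes they held, pooled over libraries and with no test. The 23 cells with Xcr1 or Clec9a, marks of conventional type 1 cells, had 26753 CPM of the 8 members. The 53 cells with Cd209a, a mark of type 2 cells, had 44653 CPM. The 46 cells with Ccr7 or Fscn1, genes of migratory cells, had 47480 CPM but 335 CPM of H2-DMa, against 678 and 642 CPM of H2-DMa in the first and second of these groups. The libraries differed in this order. Cells with Xcr1 or Clec9a had less of the 8 members than cells with Cd209a in KO2 (19818 against 41109 CPM), in WT1 (31499 against 41189 CPM) and in WT2 (20585 against 42589 CPM), the values were close in KO3 (31137 against 32809 CPM), and KO1 had 0 cells of the first group. Against cells with Cd209a, those with Ccr7 or Fscn1 had less H2-DMa in 4 libraries but more in KO3 (515 against 385 CPM), and more of the 8 members in KO2, KO3 and WT2 but less in KO1 and WT1. These 3 groups held 15 cells or fewer in each library. Cells with markers of more than 1 group numbered 81 and had 55064 CPM of the 8 members, and 43 cells with none of the 5 genes had 28754 CPM.

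Mononuclear phagocyte sub-clusters spanned a wide range of class II. The lowest, at 5275 CPM of the 8 members, were 87 monocyte-like cells led by Treml4 and Adgre4. The largest monocyte-like sub-cluster, 292 cells led by Chil3 and Ly6c2, had 10242 CPM. Of the macrophage-like sub-clusters, 98 cells led by Mmp12, a metalloelastase, were highest at 55878 CPM, against 45448 CPM in all dendritic cell-like cells. Of these 98 cells, 52 came from WT1, at 69267 CPM, and without WT1, an alternative chosen after seeing the data, the sub-cluster had 41388 CPM, against 45913 CPM in dendritic cell-like cells. The 204 cells led by Lyz1 and Ear2 had 38094 CPM and the highest H2-DMa of any sub-cluster, 950 CPM, although that gene was among their 10 leading genes. The sub-clusters led by Lyve1 or Cd209f, with 367 and 297 cells, had 13776 and 19062 CPM, and 8785 and 14508 CPM without WT1. The 379 cells led by C1qa and Cd163, 365 of them from KO3, had 12219 CPM, and Hspa1b, a heat shock gene, was among their leading genes.

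Lyve1, a hyaluronan receptor, marks resident macrophages that lie along vessels and are known in several mouse tissues for low class II. Macrophage-like cells were divided into those with at least 1 Lyve1 UMI and those with none, and sums per library were compared with the library as a block. Lyve1+ cells numbered 372, 34 and 237 in KO libraries and 227 and 117 in WT libraries, against 168, 60 and 210 and 353 and 174 Lyve1- cells. Pooled over libraries, median depths were 4541 UMIs in Lyve1+ cells and 4385 UMIs in Lyve1- cells. By library, Lyve1+ cells had 3832.5, 9322 and 4074 UMIs in KO libraries and 4838 and 7505 in WT libraries. Lyve1- cells had 3558, 6497.5 and 2925.5 UMIs in KO libraries and 5475 and 5838 in WT libraries. Lyve1+ cells were thus deeper in each library except WT1. The 8 members summed to 12893, 18126, 9063, 27081 and 19443 CPM in Lyve1+ cells of KO1, KO2, KO3, WT1 and WT2, against 37414, 40386, 22132, 48103 and 34938 CPM in Lyve1- cells of the same libraries. Lyve1+ cells were lower in each of the 5 libraries, by a factor that was smallest in WT1 and WT2.

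All 8 members fell in Lyve1+ cells in edgeR's quasi-likelihood test, with a median log2 difference of -1.42 against 0.0012 over all 8364 genes tested. Of those genes, 23.5% passed in either direction and 12% as lower. Each member except Ciita was lower in CPM in 5 of 5 libraries, although H2-Oa had only 0 to 3 UMIs a library in Lyve1+ cells. H2-Eb1 averaged 2377 ± 1160 CPM in Lyve1+ cells and 5903 ± 1982 CPM in Lyve1- cells (SD, n = 5), a log2 difference of -1.49 ± 0.17 (SE; edgeR adjusted p = 5.22e-06). H2-Aa averaged 3771 ± 1645 and 7467 ± 1996 CPM, a log2 difference of -1.17 ± 0.17 (adjusted p = 7.67e-05). The chains thus dropped more than the spread between libraries once the library was held fixed, although the ranges of Lyve1+ and Lyve1- cells overlapped across mice. H2-Ab1 had -1.45 ± 0.17 (edgeR adjusted p = 7.93e-06) and Cd74 had -1.10 ± 0.16 (adjusted p = 1.03e-04).

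The exchange genes changed as much as the chains. H2-DMb1 averaged 144 ± 49 CPM in Lyve1+ cells and 385 ± 103 CPM in Lyve1- cells, with a log2 difference of -1.54 ± 0.17 (SE; edgeR adjusted p = 3.09e-06), and H2-DMa had -1.38 ± 0.18 (adjusted p = 2.53e-05). H2-Oa, low in both, had 1.5 ± 1.0 and 8.5 ± 7.0 CPM and a log2 difference of -2.32 ± 0.56 (edgeR adjusted p = 0.00553). That difference rests on 9 UMIs in Lyve1+ cells and 64 in Lyve1- cells, 46 of them in WT1. In KO1 the counts were 3 and 2 UMIs. Ciita averaged 26.7 ± 8.5 and 46.8 ± 19.8 CPM, with -0.99 ± 0.21 (adjusted p = 0.00236), lower in 4 of 5 libraries. In KO2 Ciita had 38.4 CPM in Lyve1+ cells (12 UMIs) and 38.2 CPM in Lyve1- cells (17 UMIs), while the chains were lower. Counts this low cannot show whether Ciita dropped in that library. H2-DMb2 separated the cells most sharply: 0.618, 0, 0, 1.64 and 3.38 CPM in Lyve1+ cells of KO1, KO2, KO3, WT1 and WT2 (6 UMIs in all), against 114, 6.74, 1.305, 75.2 and 77.1 CPM in Lyve1- cells (404 UMIs). Its edgeR log2 difference was -5.84 ± 0.37 (SE; adjusted p = 1.61e-08), with KO3 near 0 in both.

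**Figure D4:**
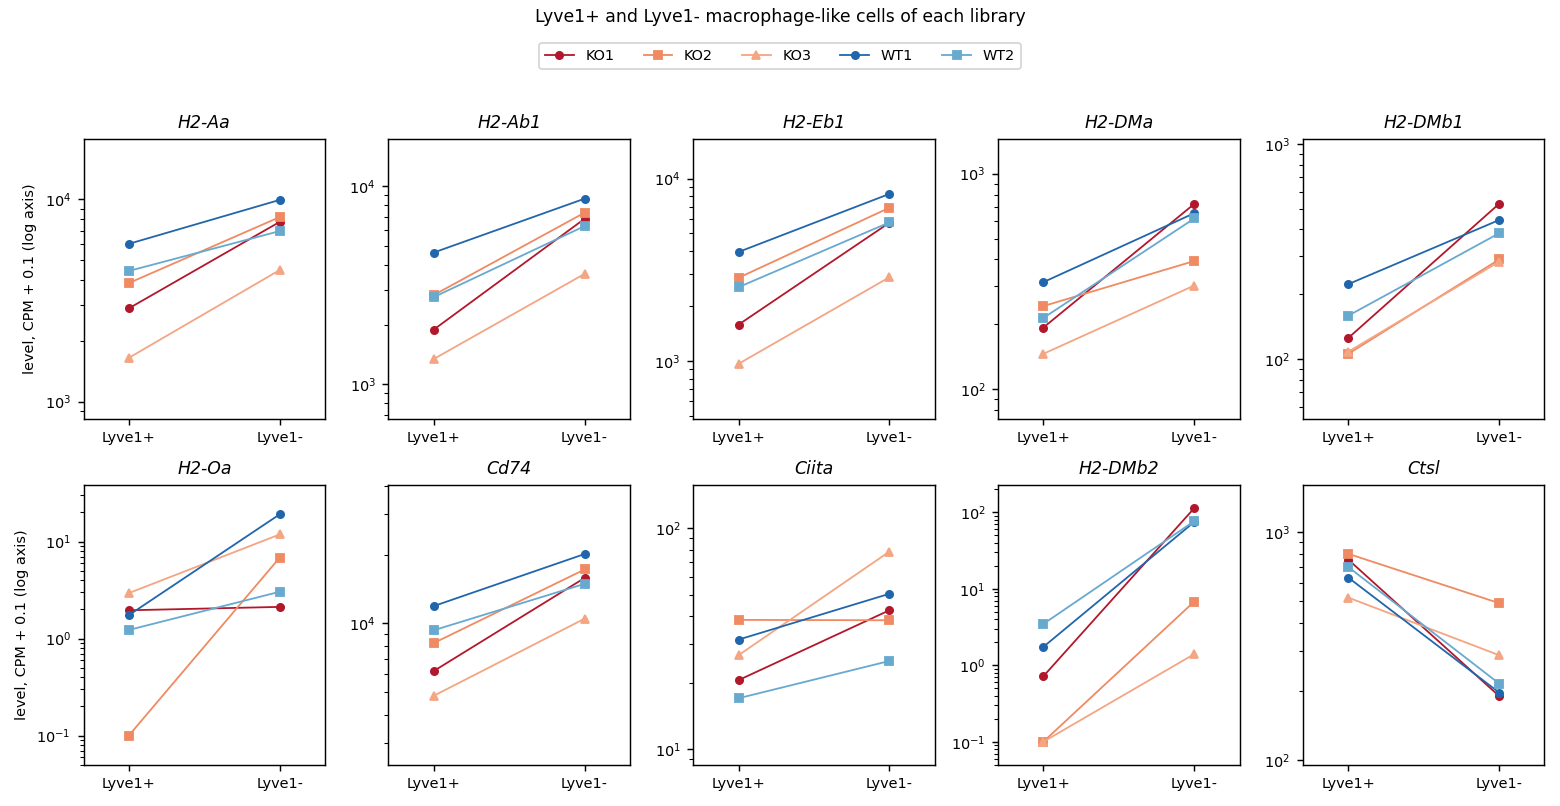
Level of each member, of H2-DMb2 and of Ctsl in Lyve1+ macrophage-like cells (left of each pair) and Lyve1- cells of the same library (right), as CPM + 0.1 on log axes whose range differs by panel, with a line joining the 2 values of a library. Lines run upward to Lyve1- cells for all members and libraries except Ciita in KO2, and downward for Ctsl.

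Other genes of the pathway did not share a direction in Lyve1+ cells. Of 6 measured RFX, CREB and NF-Y factors, 0 passed in either direction. Of 6 endosomal processing genes, 2 rose and 1 fell: Ctsl, a cathepsin that cuts Cd74 in the thymus, averaged 682 ± 112 CPM in Lyve1+ cells and 276 ± 124 CPM in Lyve1- cells (log2 1.29 ± 0.17 SE; edgeR adjusted p = 3.16e-05), Ctsb had 0.64 ± 0.16, and Ctss, the cathepsin that cuts Cd74 in macrophages and dendritic cells, had -0.74 ± 0.21 (adjusted p = 0.0157). Of 3 turnover genes, March1 and March8, ligases that send class II for degradation, rose by 0.80 ± 0.15 and 0.73 ± 0.17, and Cd83 fell by 0.44 on the log2 scale. Of 4 costimulation genes, Icosl at -1.17 ± 0.28 and Cd80 at -1.11 ± 0.36 fell and 0 rose. On the interferon gamma route to Ciita, the kinase gene Jak2 (-1.44 ± 0.28) and the receptor gene Ifngr1 (-0.47 ± 0.15) fell. Of 4 lineage factors, Batf3 fell (-1.32 ± 0.26). Of 2 other class II genes, H2-Ob fell (-1.36 ± 0.41; edgeR adjusted p = 0.0209) together with H2-DMb2. The Lyve1 difference was also fitted by genotype, where 0 of 8364 genes passed (210 at an unadjusted p under 0.05).

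The share of macrophage-like cells with a Lyve1 UMI was 68.9%, 36.2% and 53.0% in KO libraries and 39.1% and 40.2% in WT libraries. T cell-like cells, which should lack Lyve1, had 2.50%, 0% and 0% in KO libraries and 1.79% and 0.647% in WT libraries, so the macrophage-like shares were far above those of T cell-like cells.

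The genotype comparison asks whether class II expression differed between Frmd3 knockout and WT glands. Over all cells of a library the 8 members summed to 2095, 874 and 2289 CPM in KO libraries and 3799 and 1661 CPM in WT libraries, and the ranges overlapped. In edgeR's test on these sums 0 of the 8 members passed, as did 0 of 17260 genes (0%; 239 at an unadjusted p under 0.05), and the member median was -0.55 against 0.02 over all genes. In such whole-gland sums, fewer cells of a type and less RNA per cell cannot be told apart. Without WT1 that median was 0.05.

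By class, 0 members passed in any of the 11 classes tested. Only dendritic cell-like cells had a gene that passed, 1 of 4464 (0.0224%), and the other classes had 0%. That gene, named after its values were seen, was Egr1, an immediate-early transcription factor. In macrophage-like cells 7 of 8 members had negative log2 differences, with a median of -0.65 against 0.01 over all 9458 genes, and 0 had an unadjusted p under 0.05. H2-DMa had TMM-scaled levels of 213 to 382 CPM in KO libraries and 490 to 521 CPM in WT libraries (log2 -0.69 ± 0.31 SE), and H2-DMb1 had 183 to 269 and 314 to 355 CPM (-0.57 ± 0.27). These were the 2 members whose library ranges did not overlap, which held as lower for 8.17% of all genes there. Of the macrophage-like cells of KO3, 365 of 447 lay in the sub-cluster led by C1qa and Cd163, which held few cells of other libraries, and without KO3 the member median was -0.39.

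In dendritic cell-like cells the members differed little: the median log2 difference was 0.11 against 0.01 over 4464 genes, and 0 of 8 members were lower. H2-Oa had TMM-scaled levels of 98.3 to 155 CPM in KO libraries and 46.3 to 55.7 CPM in WT libraries, a log2 difference of 1.20 ± 0.33 (SE; edgeR adjusted p = 0.998). Its ranges did not overlap, which held as higher for 8.22% of all genes in that fit. In B cell-like cells, where KO3 gave no sum, 5 members had higher, non-overlapping ranges in KO1 and KO2 than in WT1 and WT2, as did 14.7% of all 7381 genes. H2-Aa there had a log2 difference of 0.42 ± 0.16 and H2-Ab1 of 0.36 ± 0.16 (SE), with edgeR adjusted p of 0.9999 for both. In monocyte-like cells the median of 6 members tested was 0.90, and -0.03 without KO3.

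In the classes that do not present antigen, most members had negative log2 differences, none of which passed. In luminal progenitor-like cells 5 of 6 members tested had them, with a median of -1.59 against 0.00016 over 11668 genes; Cd74 had 5.65 to 26.3 CPM in KO libraries and 33.4 to 62.7 CPM in WT libraries on the TMM scale (-1.64 ± 0.63 SE; edgeR adjusted p = 0.99998). Over 6 members the median in the hormone-sensing luminal-like class was -1.62; H2-Ab1 had -1.90 ± 0.61 and H2-Aa -1.81 ± 0.61, while H2-DMb1 had -0.00096 ± 0.34 and H2-DMa -0.0089 ± 0.36. The exchange genes thus differed between genotypes by less than their SE in these cells. Fibroblast-like cells had a median of -1.50 over 6 members. T cell-like cells, which should lack these genes, had the most negative median of these 4 classes, -2.02 over 5 members tested, with Cd74 at 52.2, 17.7 and 18.9 CPM in KO libraries and 128 and 151 CPM in WT libraries (-2.01 ± 0.40 SE; edgeR adjusted p = 0.9997). Library ranges did not overlap for 3 of 6 members in luminal progenitor-like cells (held as lower for 6.93% of all genes), 3 of 6 in hormone-sensing luminal-like cells (5.84%), 2 of 6 in fibroblast-like cells (4.7%) and 4 of 5 in T cell-like cells (8.02%).

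In 3 of these 4 classes the differences were smaller without WT1. Without it the median was -0.82 in luminal progenitor-like, -1.06 in hormone-sensing luminal-like and -0.61 in fibroblast-like cells. In T cell-like cells it was -2.02 with and without WT1, and -3.43 over 4 members without KO1. The 8 macrophage markers summed to 81.7, 11.3 and 132 CPM in luminal progenitor-like cells of KO libraries and 69.0 and 26.3 CPM in those of WT libraries, and to 79.7, 12.7 and 23.7 CPM and 92.4 and 21.5 CPM in T cell-like cells. Of these markers 8, 7 and 5 of 8 had UMIs in luminal progenitor-like cells of KO libraries and 8 of 8 in both WT libraries, with Fcgr1 at 0 in KO2 and KO3 and Adgre1 and Csf1r at 0 in KO3. The macrophage sums did not separate the genotypes. The 6 B cell markers summed to 4.03, 0.998 and 3.78 CPM in luminal progenitor-like cells of KO libraries and to 7.69 and 18.0 CPM in those of WT libraries, with 5, 4 and 2 of 6 markers detected against 6 and 6, and with Ms4a1 at 0 in KO1 and KO3. The B cell sum was thus higher in both WT libraries and highest in WT2. Of the 6 members tested, H2-Aa, H2-DMa and Cd74 were also higher in both WT libraries, but highest in WT1. The ranges of H2-Ab1, H2-Eb1 and H2-DMb1 overlapped between genotypes. In T cell-like cells the B cell markers summed to 119, 48.6 and 51.5 CPM in KO libraries and to 26.0 and 74.3 CPM in WT libraries, and Pax5 was at 0 in every library. The dendritic cell markers summed to 8.48, 11.1 and 5.67 CPM in luminal progenitor-like cells of KO libraries and 9.30 and 11.4 CPM in those of WT libraries, with Flt3 and Clec9a at 0 in all 5. The part of RNA from these cell types in the differences was not tested. The genotype difference in luminal progenitor-like cells was also set against that in macrophage-like cells. There 0 of 11839 genes passed (0%, with 346 at an unadjusted p under 0.05). For hormone-sensing luminal-like cells 0 of 12372 passed (0%, with 293). On simulated data these contrasts found only 17.5% and 7% of 4-fold changes, so the lack of calls does not show that the classes were alike.

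Of the other classes tested, basal/myoepithelial-like cells had a median of -1.36 over 3 members, which turned to 0.95 over 2 members without WT1. NK/innate lymphoid-like cells had -1.50 over 5 members, and -0.03 without WT1. Schwann/glial-like cells had -4.19 over 4 members, where WT2 had 738 CPM of the 8 members. Without the cells that held a UMI of 8 pan-leukocyte genes, only 1 member could be tested in Schwann/glial-like cells, at -0.25, while the median was -1.39 in luminal progenitor-like, -0.95 in hormone-sensing luminal-like, -1.62 in fibroblast-like and, over 2 members, -1.63 in basal/myoepithelial-like cells.

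**Figure D5:**
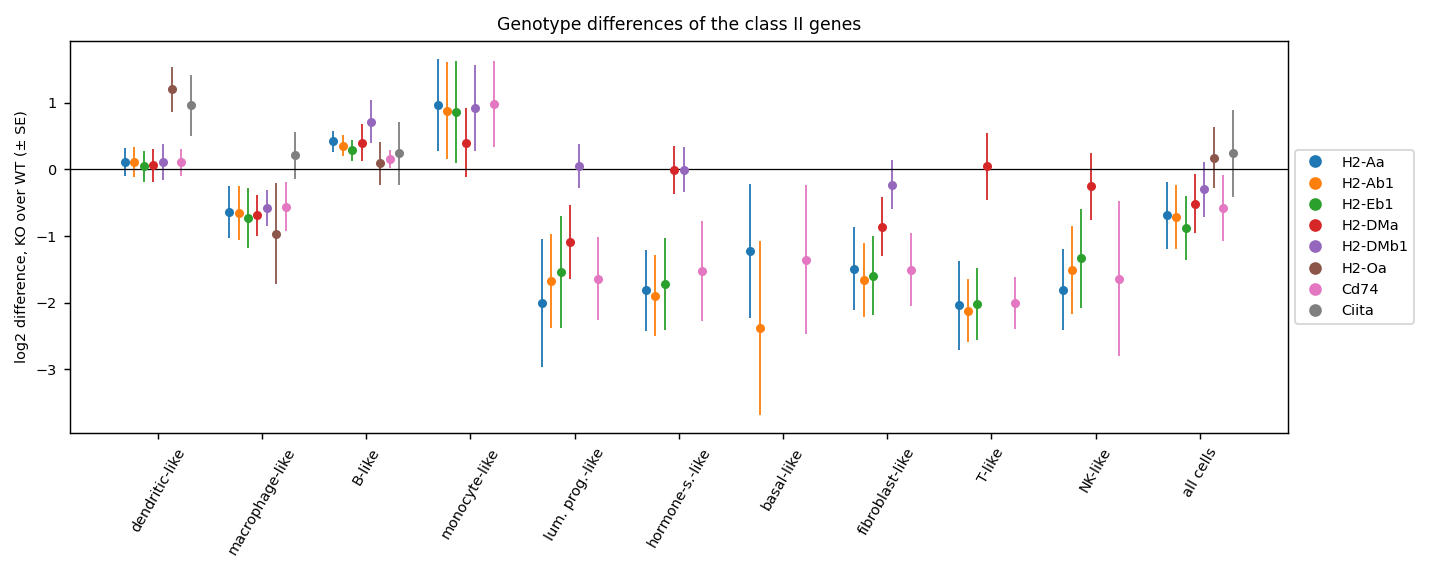
Log2 difference, knockout over wild type, of each member tested in 10 classes and in the sum over all cells, with bars for the SE from edgeR; Schwann/glial-like cells are not drawn. Most members lie below 0 in luminal, fibroblast-like and T cell-like cells, H2-Oa lies at 1.20 in dendritic cell-like cells, and none passed the adjusted threshold of 0.05.

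The lists of other pathway genes gave 0 calls in any class. Named by the smallest unadjusted p, Irf1, an interferon-induced factor, had -1.23 and Lgmn, an endosomal protease, -1.002 in dendritic cell-like cells.

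The share of cells in the presenting classes overlapped between genotypes for 3 of the 4 classes, the exception being monocyte-like cells. Macrophage-like cells made up 5.71%, 2.12% and 20.2% of cells in KO libraries and 12.01% and 4.94% in WT libraries. Dendritic cell-like cells made up 0.317%, 0.698% and 2.57% in KO libraries and 1.35% and 1.07% in WT libraries. B cell-like cells made up 3.26%, 2.57% and 0% in KO libraries and 0.931% and 4.70% in WT libraries. The monocyte-like ranges did not overlap, with 0.413%, 1.67% and 2.12% in KO libraries and 2.75% and 2.21% in WT libraries. Two-sided exact permutation tests gave p = 1, 1, 0.8 and 0.2 for these 4 classes (0.8 to 1 after Benjamini-Hochberg adjustment). With 3 libraries against 2 this test allows no p below 0.2, so the monocyte-like value was the lowest it could give. The unnamed cluster lowers all shares in KO1.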

How the data were processed

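Single cells of mammary gland from 5 mice were captured with the 10x Genomics 3′ kit and sequenced on an Illumina NovaSeq, per the labels' protocols. The authors deposited unnormalized UMI counts by gene and barcode, made with Cell Ranger (6.1.2 in KO3 and 6.0.2 in the other libraries, per the file headers). The submitters' processing notes name mm10, and no annotation release is given in the sources used here. A 3′ count is not scaled by transcript length.

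Barcodes with fewer than 500 genes or over 15% mitochondrial UMIs were left out, and 28588 of 32472 stayed. Doublets were scored against 2 simulated doublets per cell and the top 0.8% per 1000 barcodes removed: 916, 209 and 61 cells in KO libraries and 230 and 338 in WT libraries. Counts were scaled to 10000 per cell, and 2000 variable genes without class II genes gave 30 components, a graph of 20 neighbours and Leiden clusters at resolution 1 (scanpy 1.11.5, leidenalg 0.10.2); myeloid and lymphoid cells were clustered again. A cluster was named from marker lists when at least 3 markers were detected in 10% of its cells and at least 2 were raised 1.5-fold, the second limit set after seeing the data. The class names are rebuilt from markers and may differ from the authors' own.

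UMIs were summed per library and class with at least 20 cells and fitted with edgeR 4.0.16 (filterByExpr, TMM, robust quasi-likelihood) in R 4.3.3, with Benjamini-Hochberg adjustment over all genes tested and a threshold of 0.05. CPM carries TMM factors only where stated. Each SE is the absolute log2 difference divided by the square root of the F statistic. Floors stand for 3 UMIs and intervals cover counting error only. On simulated data (dispersion 0.1) and 200 changed genes, the luminal progenitor-like fit found 73.5% of 4-fold changes, the macrophage-like fit 74% and the Lyve1 comparison 92.5%. For 2-fold changes these shares were 1.5%, 4% and 20.5%. The dispersion was set to the same value for all genes and not estimated from these data. The shares thus need not hold for genes that vary more between libraries.

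The alternatives were no filter, no TMM factors, DESeq2 1.42.0, each library left out, a replicate block, stricter cell filters (1000 genes, 10% mitochondrial), doublets kept, resolution 2, class II genes among the clustering genes, cells without pan-leukocyte UMIs, 2 Lyve1 UMIs and thinning to 1000 UMIs. Every member was described in each class; other genes came from fixed pathway lists, at most 4 per list and class by smallest unadjusted p, and some pathway results are not reported here. The members and lists were chosen with earlier results of these data known. Promoter windows came from RefSeq (GRCm38.p6) and matched 5 of the 8 members by symbol; those of 4 are shown.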

Additional observations from a re-analysis of the deposited data

How the results depend on the processing

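In the genotype fits the count of class II genes that passed was 0 and stayed so in 160 of 173 recomputations, and no result that passed changed direction. Without the filter on low counts 1 member passed in NK/innate lymphoid-like cells, 4 in Schwann/glial-like, 4 in T cell-like and 4 in luminal progenitor-like cells, and 1 in the contrast of luminal progenitor-like with macrophage-like cells. With the replicate number as a block, 4 passed in luminal progenitor-like, 4 in hormone-sensing luminal-like, 4 in fibroblast-like, 3 in Schwann/glial-like and 1 in basal/myoepithelial-like cells; the block changed no other member's call. The labels do not say that a number marks a shared litter or batch, there are 2 pairs only, and same-numbered libraries had correlations of their deviations of 0.172 and 0.449 across 15554 genes. Counts of all genes under the block were 188 in luminal progenitor-like, 80 in hormone-sensing luminal-like, 37 in monocyte-like, 26 in B cell-like, 18 in basal/myoepithelial-like, 11 in fibroblast-like and 0 to 6 in other fits, and without the filter up to 76; DESeq2 called 13 genes over all cells, 3 in macrophage-like cells and at most 1 elsewhere. Leaving out 1 library gave 0 to 4 members in NK/innate lymphoid-like cells (4 without WT2) and 0 to 4 in Schwann/glial-like cells (4 without KO1, 3 without KO2), and 0 in the other classes. Without WT1 the member median was 0.95 in basal/myoepithelial-like and -0.03 in NK/innate lymphoid-like cells. With doublet-scored cells kept, the difference in macrophage-like share became 15.1 percentage points in place of 0.857, because the unnamed KO1 cluster was then named macrophage-like (46.4% of KO1). Thinned to 1000 UMIs, 98.4% of dendritic cell-like and 98.9% of B cell-like cells held a class II UMI. In the Lyve1 comparison 7 or 8 members passed under every alternative, with 1109 to 2165 genes called. Stricter cell filters and the other clusterings moved no member's call. For the fit over all cells, keeping doublets, resolution 2 and clustering with class II genes were chosen after seeing the data. Depth limits the low genes: Ciita rests on 1070 UMIs and H2-Oa on 926 UMIs in all cells used.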

Other observations

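Classes with sums in too few libraries for a genotype test also held class II UMIs. Endothelial-like cells had 439 CPM of the 8 members in KO2 and 42.5 CPM in KO3, against 376 CPM in WT1. Pericyte/vascular smooth muscle-like cells had 31.7 to 52.6 CPM in the 3 KO libraries, against 644 CPM in WT1. Neutrophil-like cells had 162 CPM in KO2 and 173 CPM in WT2, and mast cell/basophil-like cells of KO3 had 23.2 CPM. In group 2 innate lymphoid-like cells of WT2, the 8 members summed to 301 CPM.

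The unnamed KO1 cluster, led by Retnla and Lyve1, had 2916 CPM of the 8 members, against 1928 CPM in the other cells of KO1. Its level was thus far below that of macrophage-like cells of the same library.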
